A study of Arabidopsis thaliana with 12 samples.

Results

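The cysteine-rich receptor-like kinase (CRK) family of Arabidopsis thaliana was followed across 12 RNA-seq libraries through 40 loci, of 32833 loci in the deposited count table. Members were listed by their locus identifiers as CRK genes, but with earlier results of these data known. 36 of the 40 had enough counts to be tested, among 19090 tested genes in all. 20 of the 40 lie side by side in a tandem array on chromosome 4 (CRK5 to CRK24, AT4G23130 to AT4G23320), and the table's identifiers for CRK9 and CRK17 carry the RefSeq symbols EP1 and EMB1290.

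The study compared stable transgenic Columbia-0 plants of 3 kinds. The Mlp37347 line expressed the candidate secreted effector Mlp37347 of the poplar leaf rust fungus Melampsora larici-populina fused to GFP, the Mlp124499 line expressed the effector candidate Mlp124499 fused to GFP, and the Control line expressed GFP without an effector. All 3 lines also carried BAR, a herbicide resistance gene used for selection. RNA came from pooled above-ground tissue of plants grown in soil at 22 °C with 16 h of light and harvested 15 days after germination, with 4 libraries per line. The labels do not name the promoter that drives the transgenes or the number of independent transformants behind a line, and nothing states that the replicate libraries were grown apart, so p-values below measure the spread between these libraries, which may be technical. The transgene transcripts were not analysed here, so the level of each effector was not checked.

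CRKs are membrane proteins whose extracellular part holds cysteine-rich DUF26 domains, joined through a transmembrane segment to an intracellular serine/threonine kinase. Many members are induced in leaves by pathogens, salicylic acid and reactive oxygen species, and several take part in pattern-triggered immunity, defence-related cell death and stomatal responses. WRKY transcription factors, which act in the same defence responses, bind the W-box, whose core is TTGAC.

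The 300 bases before the annotated start of each CRK gene were read from RefSeq's annotation of assembly TAIR10.1 and searched for TTGAC on either strand, written TTGAC or GTCAA on the gene's strand. These 2 words cannot overlap each other. At least 1 match lay in 31 of the 40 CRK windows (77.5%), against 50.4% of the windows of 27443 protein-coding genes. At least 3 matches lay in 10 CRK windows (25.0%), against 5.07% of all windows. CRK genes arose by duplication and share sequence, so the 40 windows are not independent. The windows of 6 members are shown because their genes represent both outcomes with and without matches, all 5′ to 3′ on the gene's strand with the matches in capitals. CRK11 (chr4:12143859-12144158, minus strand, 6 matches), CRK31 (chr4:6967409-6967708, plus strand, 4 matches) and CRK39 (chr4:2259198-2259497, plus strand, 2 matches) belong to genes that fell in both effector lines, as does CRK13 (chr4:12151639-12151938, minus strand), which has no match. CRK5 (chr4:12120221-12120520, minus strand, 4 matches) and CRK19 (chr4:12170655-12170954, plus strand, no match) belong to genes with no call in either line.
CRK11: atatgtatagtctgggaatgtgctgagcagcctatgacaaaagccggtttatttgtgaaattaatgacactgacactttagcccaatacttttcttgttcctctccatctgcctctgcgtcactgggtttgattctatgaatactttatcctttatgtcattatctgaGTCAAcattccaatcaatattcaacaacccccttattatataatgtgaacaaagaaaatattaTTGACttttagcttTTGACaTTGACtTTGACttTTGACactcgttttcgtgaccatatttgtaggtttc
CRK31: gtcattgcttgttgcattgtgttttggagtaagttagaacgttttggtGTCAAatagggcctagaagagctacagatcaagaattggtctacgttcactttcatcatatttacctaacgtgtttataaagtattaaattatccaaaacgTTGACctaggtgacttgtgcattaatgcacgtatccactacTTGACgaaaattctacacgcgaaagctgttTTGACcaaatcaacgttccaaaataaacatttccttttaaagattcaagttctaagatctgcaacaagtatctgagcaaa
CRK39: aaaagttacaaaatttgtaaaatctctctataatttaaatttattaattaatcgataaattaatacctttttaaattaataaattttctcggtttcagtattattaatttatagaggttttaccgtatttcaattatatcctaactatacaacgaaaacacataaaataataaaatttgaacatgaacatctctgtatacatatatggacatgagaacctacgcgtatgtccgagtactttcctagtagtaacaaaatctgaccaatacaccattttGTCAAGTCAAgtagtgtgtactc
CRK13: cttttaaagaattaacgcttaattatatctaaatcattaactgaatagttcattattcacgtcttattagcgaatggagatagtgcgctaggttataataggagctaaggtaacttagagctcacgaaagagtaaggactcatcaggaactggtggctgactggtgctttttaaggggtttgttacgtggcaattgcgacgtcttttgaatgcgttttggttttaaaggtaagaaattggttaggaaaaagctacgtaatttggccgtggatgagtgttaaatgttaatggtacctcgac
CRK5: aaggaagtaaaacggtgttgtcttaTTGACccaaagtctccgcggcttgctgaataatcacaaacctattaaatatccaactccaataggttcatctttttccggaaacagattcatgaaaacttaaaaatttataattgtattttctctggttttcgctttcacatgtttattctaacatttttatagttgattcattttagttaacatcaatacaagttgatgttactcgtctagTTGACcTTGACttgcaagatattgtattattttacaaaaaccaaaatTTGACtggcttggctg
CRK19: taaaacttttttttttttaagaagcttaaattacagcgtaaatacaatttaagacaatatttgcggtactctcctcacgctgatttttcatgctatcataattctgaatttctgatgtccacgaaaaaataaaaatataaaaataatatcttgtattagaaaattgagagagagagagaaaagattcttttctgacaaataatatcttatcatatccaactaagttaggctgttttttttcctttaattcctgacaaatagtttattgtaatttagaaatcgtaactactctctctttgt
A match is a description of these letters and not evidence of binding. Of the 14 members that were lower in both effector lines, 12 had a match, and of the 17 members with no call in either line, 10 had one. Both sets held windows with and without a match: CRK13 and CRK28 fell in both lines without a match, and CRK5 and CRK41 held 4 matches each without a call. The CRK28 window lies inside the neighbouring gene CRK29, and the CRK16 window lies inside EMB1290 (CRK17). All 5 members that were lower in 1 effector line alone had a match, and so did all 4 untested members.

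Library totals ran between 12368262 and 24483245 counts for Mlp37347, 10813288 and 14733894 for Mlp124499, and 6645703 and 37378917 for Control. Alignment reached 57.6% of trimmed reads in library 1 of Control and 88.0% to 95.5% elsewhere. The deposited mate inner distance, the gap between paired reads, was 110 or 115 bp in libraries 1 to 3 of Mlp37347, 70 bp in its library 4, and 50 to 84 bp in the other lines, so that a library-preparation difference and the Mlp37347 line cannot be told apart for those 3 libraries. Libraries 1 to 3 of Mlp37347 also resembled one another more than they resembled library 4, with a chi-square per degree of freedom of 2.90 to 6.57 among them and 158 to 220 against library 4. In Mlp124499 the value was 7.1 between libraries 1 and 2 and 88.4 to 139 against library 4. For Control it was 9.09 between libraries 2 and 3 and 58.3 to 113 against library 1. Leaf markers such as RBCS1A, the small subunit of Rubisco, summed to 33189 to 41523 CPM (counts scaled to a common library total) in Mlp37347, 25652 to 35021 CPM in Mlp124499 and 19166 to 37024 CPM in Control. Root markers summed to at most 2.08 CPM and flower markers to at most 3.87 CPM in any library.

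Levels are given as CPM after TMM scaling, a correction for differences in library composition, and between genes as CPM per kb of exon. Summed over the 40 members, CRK transcripts came to 606 ± 85.9 CPM in Mlp37347, 525 ± 61.7 CPM in Mlp124499 and 958 ± 175 CPM in Control (SD, n = 4 each). The sums were 644, 585, 698 and 497 CPM in the 4 Mlp37347 libraries, 476, 477, 543 and 605 CPM in the 4 Mlp124499 libraries, and 1096, 1016, 1017 and 702 CPM in the 4 Control libraries. Every effector library lay below every Control library, and library 4 of Control was the Control library nearest to them. In bulk tissue, fewer cells that express a gene and less RNA per cell cannot be told apart.

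In Control plants, CRK4, whose overexpression is known to trigger hypersensitive-like cell death, had the highest level of the family at 43.0 ± 18.2 CPM per kb. CRK10 followed at 29.7 ± 3.63 CPM per kb, and then CRK19, CRK40 and CRK13 at 20.9 ± 3.56, 20.7 ± 3.44 and 20.2 ± 8.61 CPM per kb, which lay within one another's spread (SD, n = 4 each). The order differed in the effector lines: CRK10 was highest in Mlp37347, at 25.6 ± 3.35 CPM per kb, and CRK21 in Mlp124499, at 22.1 ± 6.66 CPM per kb. CRK4 stood at 10.6 ± 4.03 CPM per kb in Mlp37347 and 12.5 ± 5.18 CPM per kb in Mlp124499. Levels of at least 10 CPM per kb were reached by 10 members in Mlp37347, 8 in Mlp124499 and 17 in Control. The tandem array held a similar share of the summed CRK CPM in all 3 lines, namely 55.1% in Mlp37347, 56.1% in Mlp124499 and 54.3% in Control.

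**Figure D1:**
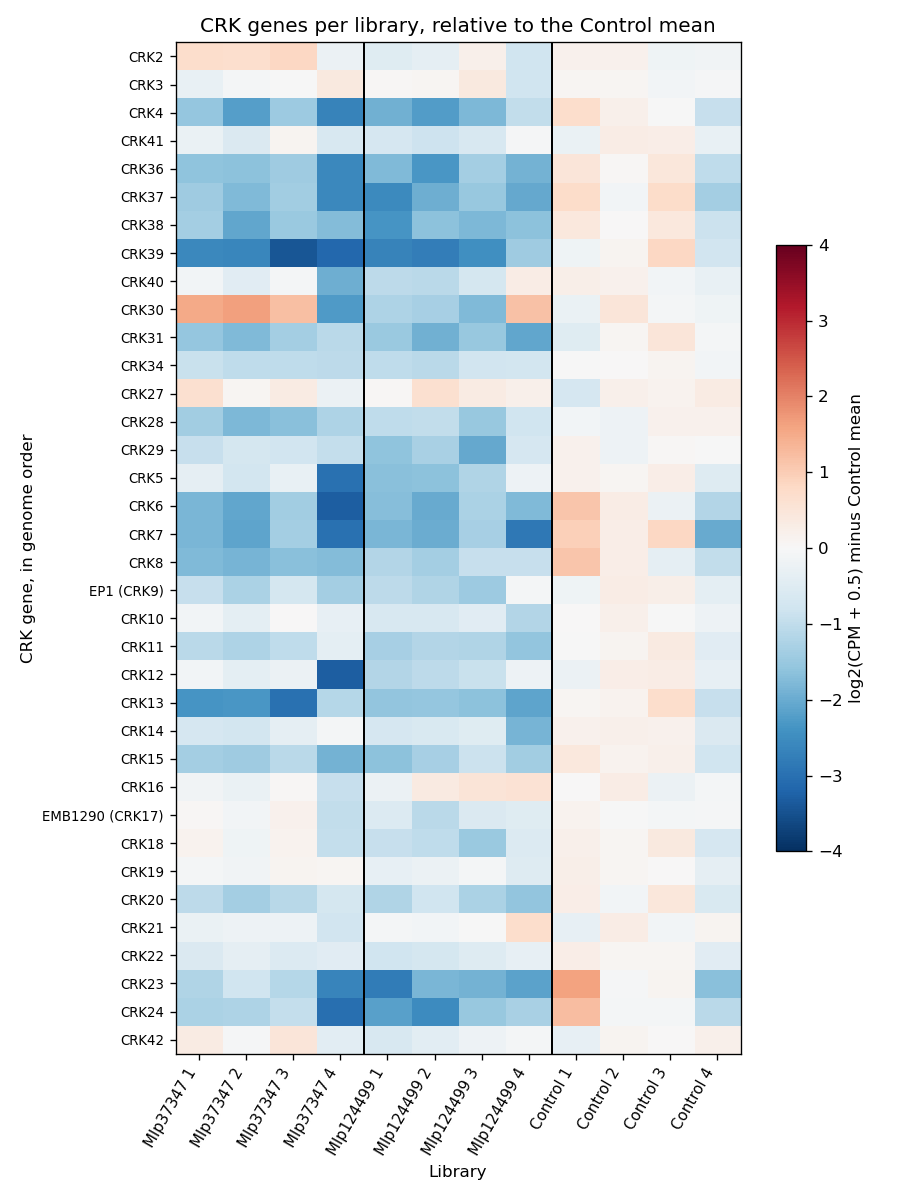
Level of each of the 36 tested CRK genes (rows, genome order) in each of the 12 libraries (columns), as log2(CPM + 0.5) minus the mean of the 4 Control libraries; blue is below and red above the Control mean. Most rows are blue in the 8 effector libraries, and library 4 of Control lies below the Control mean for 32 of the 36 genes.

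Comparison with the Control line addresses which CRK genes differ between each effector line and the GFP-only line. An effect of the effector and any other difference between the lines cannot be told apart. The test was edgeR's quasi-likelihood test on all 12 libraries. Adjustment was by Benjamini-Hochberg over the 19090 tested genes, with a threshold of 0.05. In Mlp37347, 16 of the 36 tested CRK genes were lower than in Control (5.42% of all tested genes were called lower) and 0 were higher (3.19% of all tested genes). In Mlp124499, 17 were lower (2.71% of all tested genes) and 0 higher (1.56%). Both lower counts include CRK38, which passed the filter through its Control libraries alone. Without it they were 15 and 16 of 35. The median log2 fold change over the 36 was -0.89 in Mlp37347, against 0.01 over all tested genes, and -1.06 in Mlp124499, against -0.01. Beside the counts of 0 by edgeR, no member was higher at an unadjusted edgeR p under 0.05 in either line. By DESeq2, 1 member was higher at an unadjusted p under 0.05 in Mlp37347 and 0 in Mlp124499. After adjustment DESeq2 called 0 higher in each (7.05% of all genes it tested in Mlp37347 and 3.40% in Mlp124499). Limma voom with sample weights called 2 of 36 higher in Mlp37347 (27.6% of all genes) and 0 in Mlp124499 (16.1%). Libraries did not overlap between lines, with all 4 effector libraries below all 4 Control libraries, for 15 members in Mlp37347 (10.8% of all tested genes) and for 18 in Mlp124499 (6.64%). CRK38 is among both of these sets too. No member had all 4 effector libraries above all 4 Control libraries in Mlp37347 (8.41% of all tested genes) or in Mlp124499 (4.31%).

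14 members were lower in both effector lines (1.67% of all tested genes were), namely CRK4, CRK6, CRK7, CRK11, CRK13, CRK15, CRK20, CRK28, CRK31, CRK34, CRK36, CRK37, CRK38 and CRK39. Without CRK38, which entered the test through Control alone, 13 of 35 were lower in both. CRK8 and EP1 (CRK9) passed in Mlp37347 and not in Mlp124499, and CRK10, CRK23 and CRK29 passed in Mlp124499 and not in Mlp37347. The 2 comparisons share the 4 Control libraries, so agreement between them is not independent. Single libraries moved the counts: leaving out 1 library at a time gave 10 to 18 lower members in Mlp37347, with 10 both without its library 2 and without library 3 of Control. In Mlp124499 the range was 3 to 21, with 3 without its library 2, 7 without its library 1, 10 without its library 3, and 10, 9 and 6 without libraries 1, 2 and 3 of Control. Calls over all tested genes moved as well: 0.765% were lower in Mlp124499 without its library 2, 0.966% without its library 1 and 1.48% without its library 3, and 1.81%, 1.44% and 1.02% without libraries 1, 2 and 3 of Control. In Mlp37347, 2.12% of all genes were lower without its library 2 and 2.83% without library 3 of Control. Without library 1 of Control, the one with the low alignment rate, Mlp37347 had 12 (3.81% of all genes). Without library 4 of Mlp37347 the counts were 15 in Mlp37347 (11.1% of all genes) and 20 in Mlp124499 (4.28%), and without library 4 of Control they were 18 (5.45%) and 21 (2.84%). The fold change of every called member kept its sign in all 12 of these fits. The calls of CRK4, CRK6, CRK8, CRK13, CRK15, CRK28, CRK31, CRK34, CRK36 and CRK39 in Mlp37347, and those of CRK11, CRK28 and CRK31 in Mlp124499, also held in all 12. Each of the other 6 calls in Mlp37347 was lost both without its library 2 and without library 3 of Control, and each of the other 14 calls in Mlp124499 was lost without its library 2.

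**Figure D2:**
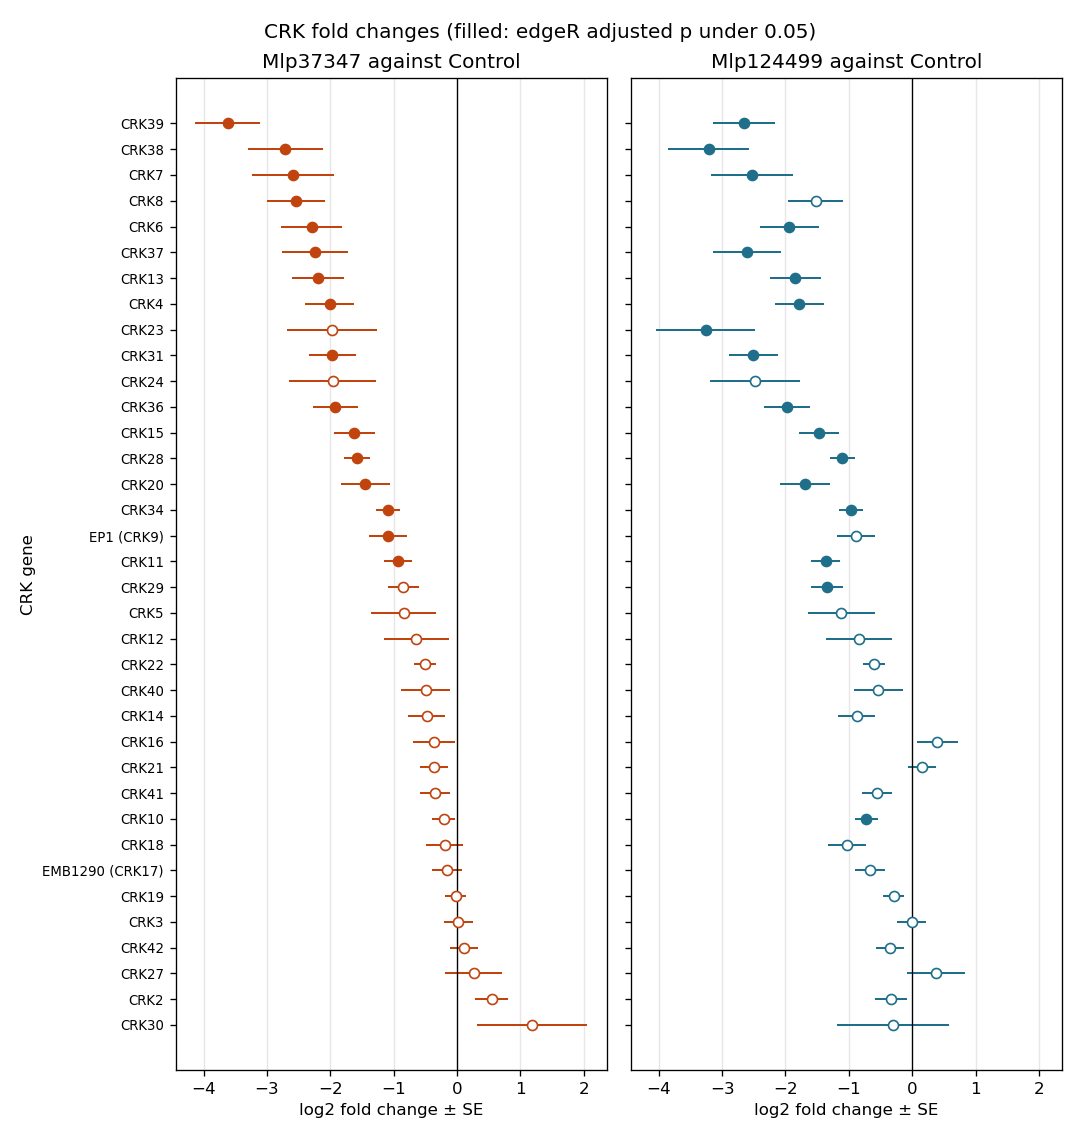
Log2 fold change ± SE of each tested CRK gene in Mlp37347 against Control (left) and Mlp124499 against Control (right), ordered by the left panel; filled points passed an edgeR adjusted p of 0.05. All filled points, 16 on the left and 17 on the right, lie below 0.

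**Figure D3:**
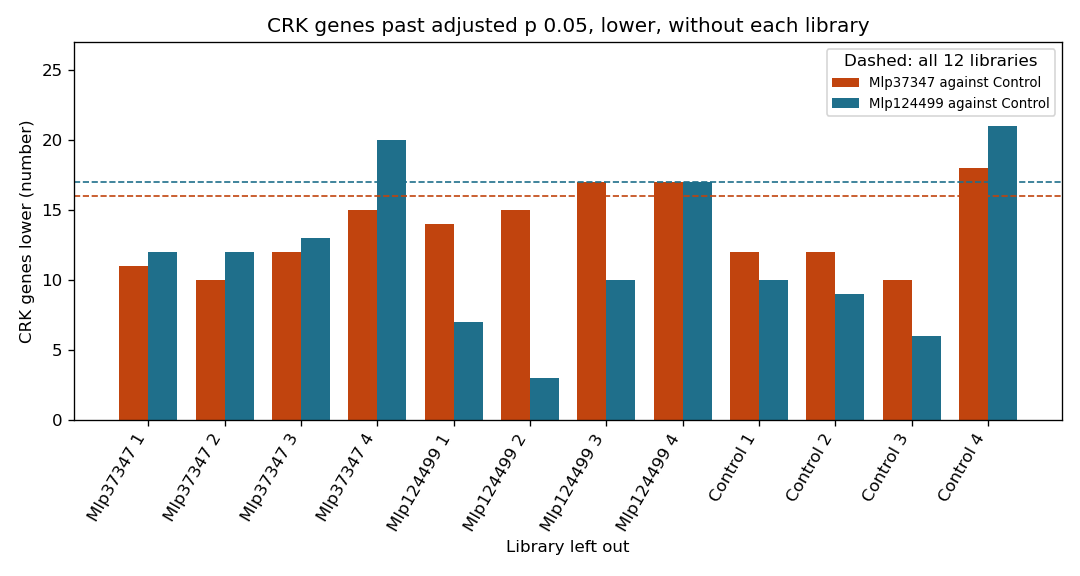
Number of CRK genes called lower than Control (vertical axis) when the library named on the horizontal axis is left out, for Mlp37347 and Mlp124499; dashed lines give the counts with all 12 libraries, 16 and 17. The bars run between 10 and 18 for Mlp37347 and between 3 and 21 for Mlp124499.

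Members with known roles in immunity and cell death were among those that fell. CRK4 (AT3G45860) had 34.5, 21.7, 37.3 and 15.6 CPM in Mlp37347, 26.5, 21.4, 29.0 and 51.4 CPM in Mlp124499, and 168, 118, 102 and 54.2 CPM in Control. Its highest Mlp124499 library came close to its lowest Control library, and neither effector line overlapped Control. The log2 fold change of CRK4 was -2.01 ± 0.39 (SE) in Mlp37347 (edgeR adjusted p = 0.00849) and -1.78 ± 0.38 in Mlp124499 (edgeR adjusted p = 0.0221).

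CRK13 (AT4G23210), whose overexpression is known to raise salicylic acid and resistance to Pseudomonas syringae, had 9.01, 9.25, 5.76 and 22.1 CPM in Mlp37347, 16.1, 16.4, 15.3 and 11.02 CPM in Mlp124499, and 51.6, 53.9, 80.5 and 25.3 CPM in Control. Library 4 was the highest of Mlp37347 and the lowest of Control, and the lines did not overlap. The log2 fold change was -2.20 ± 0.41 in Mlp37347 (edgeR adjusted p = 0.00725) and -1.85 ± 0.40 in Mlp124499 (edgeR adjusted p = 0.0234).

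CRK28 (AT4G21400), which is known to associate with the co-receptor BAK1 and to promote immunity and cell death, had 8.21, 6.20, 6.77 and 9.32 CPM in Mlp37347, 10.9, 11.2, 7.51 and 12.7 CPM in Mlp124499, and 20.7, 19.5, 25.2 and 25.4 CPM in Control. All Control libraries lay above all libraries of both effector lines. It fell by 1.58 ± 0.20 on the log2 scale in Mlp37347 (edgeR adjusted p = 0.00128) and fell by 1.10 ± 0.20 in Mlp124499 (edgeR adjusted p = 0.00989). Its close relative CRK29 (AT4G21410), 86.9% identical over 2024 aligned coding bases and overlapping it on the same strand, averaged 29.9 ± 2.51 CPM in Mlp37347, 21.2 ± 9.05 CPM in Mlp124499 and 53.9 ± 5.65 CPM in Control (SD, n = 4 each). CRK29 fell in Mlp124499 (-1.34 ± 0.25 on the log2 scale, edgeR adjusted p = 0.0104) and missed the threshold in Mlp37347 (-0.85 ± 0.25, edgeR adjusted p = 0.0509), although no Mlp37347 library reached a Control library. Reads in the stretch that CRK28 and CRK29 share cannot be told apart.

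CRK20 (AT4G23280), another member whose overexpression triggers cell death, had a low level: it averaged 0.896 ± 0.258 CPM in Mlp37347, 0.756 ± 0.288 CPM in Mlp124499 and 2.46 ± 0.903 CPM in Control (SD, n = 4 each). It fell by 1.45 ± 0.38 on the log2 scale in Mlp37347 (edgeR adjusted p = 0.0348) and fell by 1.69 ± 0.39 in Mlp124499 (edgeR adjusted p = 0.0306). Of the 12 fits without a library, 7 lost the call in Mlp37347 and 9 lost it in Mlp124499. CRK19 (AT4G23270), with 90.0% identity to CRK20 the closest of its relatives and also known to trigger cell death when overexpressed, had 51.2, 49.3, 58.7 and 56.9 CPM in Mlp37347, 43.4, 46.0, 51.7 and 37.8 CPM in Mlp124499, and 64.2, 57.7, 55.0 and 42.1 CPM in Control. The 3 lines overlapped, with log2 fold changes of -0.02 ± 0.17 in Mlp37347 (95% interval -0.38 to 0.34) and -0.29 ± 0.17 in Mlp124499 (-0.65 to 0.07). CRK5 (AT4G23130), a regulator of cell death and senescence, averaged 6.32 ± 3.72 CPM in Mlp37347, 5.22 ± 3.12 CPM in Mlp124499 and 11.5 ± 2.60 CPM in Control (SD, n = 4 each), and passed in neither line (log2 fold change -0.84 ± 0.52 and -1.12 ± 0.53, edgeR adjusted p = 0.335 and 0.320).

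**Figure D4:**
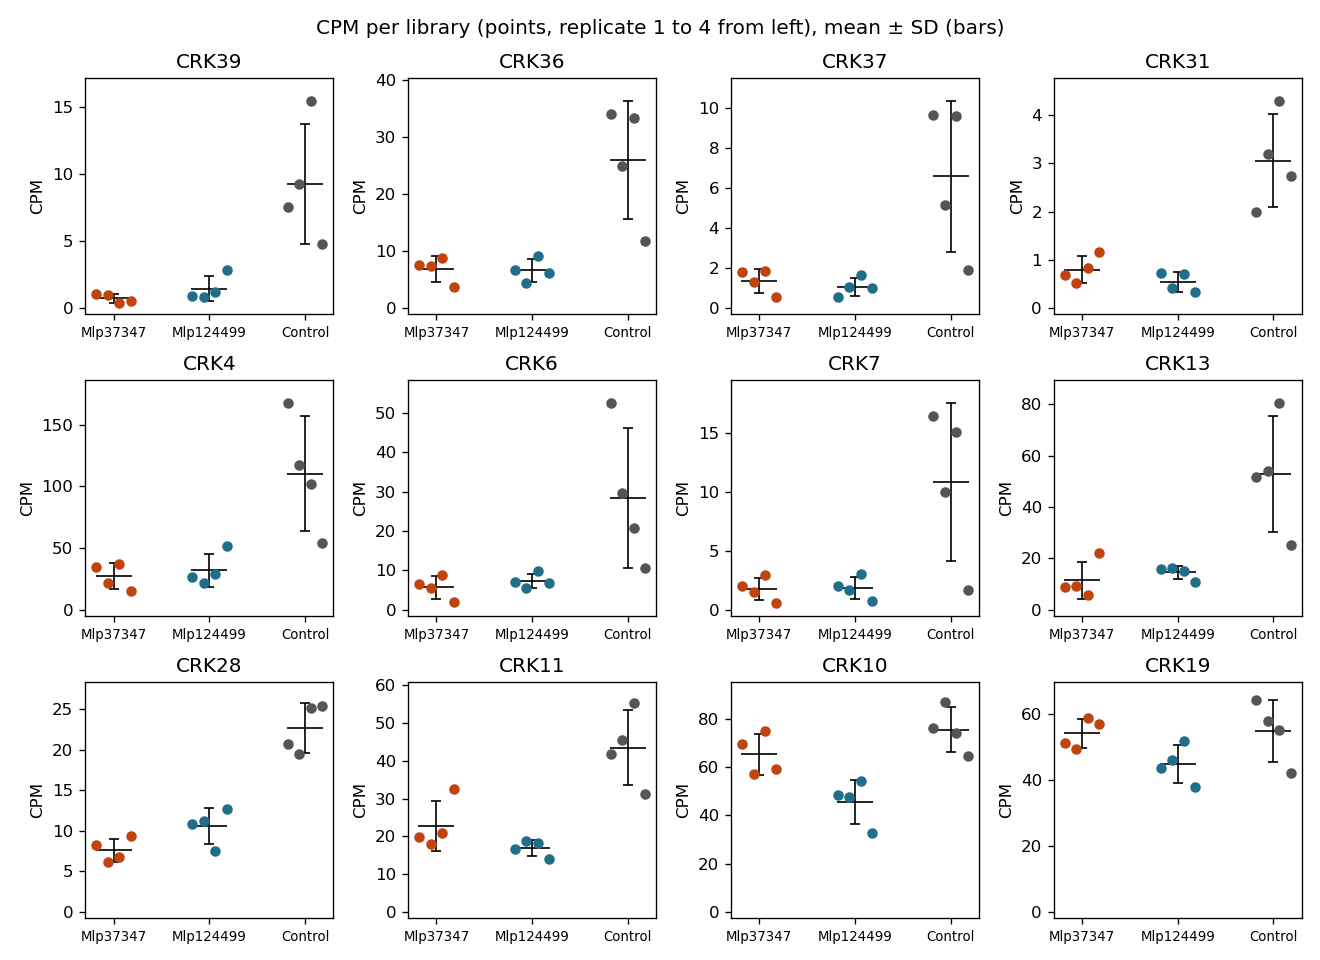
CPM of 12 CRK genes in each library (points, libraries 1 to 4 of a line from left to right) with the mean and SD of each line; each panel has its own vertical axis. For 10 of the genes the Control mean is well above both effector means, and for CRK10 and CRK19, the last 2 panels, the Mlp37347 and Control libraries overlap. Single libraries also overlap Control for CRK7 in both effector lines and for CRK11 in Mlp37347.

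The short cluster on chromosome 4 between 2231717 and 2292965 (TAIR10.1) holds CRK36 (AT4G04490), CRK37 (AT4G04500), CRK38 (AT4G04510), CRK39 (AT4G04540) and CRK40 (AT4G04570). 4 of these 5 fell in each effector line, where 5.42% (Mlp37347) and 2.71% (Mlp124499) of all tested genes were lower. The 4 include CRK38, which passed the filter through its Control libraries alone and so had to be lower. CRK36, known to act in stomatal immunity with the receptor-like cytoplasmic kinase BIK1, had 7.57, 7.33, 8.69 and 3.64 CPM in Mlp37347, 6.71, 4.35, 9.06 and 6.10 CPM in Mlp124499, and 34.0, 24.9, 33.2 and 11.7 CPM in Control. Library 4 was the lowest of Control and lay above every effector library. The log2 fold change of CRK36 was -1.92 ± 0.36 in Mlp37347 (edgeR adjusted p = 0.00730) and -1.98 ± 0.36 in Mlp124499 (edgeR adjusted p = 0.00956).

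CRK39 had the largest change of the family in Mlp37347. Its level was 1.02, 0.981, 0.334 and 0.532 CPM in Mlp37347, 0.907, 0.820, 1.16 and 2.85 CPM in Mlp124499, and 7.57, 9.25, 15.4 and 4.78 CPM in Control. Effector libraries all lay below Control, with library 4 of Mlp124499 the highest of them. CRK39 fell by 3.62 ± 0.51 on the log2 scale in Mlp37347 (edgeR adjusted p = 0.00186) and fell by 2.66 ± 0.49 in Mlp124499 (edgeR adjusted p = 0.00989). Its neighbour and closest relative CRK40, 87.1% identical, averaged 45.4 ± 20.5 CPM in Mlp37347, 44.1 ± 22.4 CPM in Mlp124499 and 63.9 ± 10.6 CPM in Control (SD, n = 4 each) and passed in neither line (log2 fold change -0.49 ± 0.39 and -0.53 ± 0.39, edgeR adjusted p = 0.464 and 0.601). 1.80% of the 100-base words in the exons of CRK39 occur elsewhere in the genome.

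CRK37 had 1.78, 1.29, 1.84 and 0.532 CPM in Mlp37347, 0.544, 1.07, 1.63 and 0.973 CPM in Mlp124499, and 9.69, 5.14, 9.60 and 1.90 CPM in Control. Library 4 of Control stood just above the highest Mlp37347 library. CRK37 fell by 2.23 ± 0.52 on the log2 scale in Mlp37347 (edgeR adjusted p = 0.0211) and fell by 2.61 ± 0.54 in Mlp124499 (edgeR adjusted p = 0.0176). CRK38 reached the filter minimum of 0.713 CPM in the 4 Control libraries and in no effector library, so it entered the test through Control alone and had to be lower in the effector lines. Without CRK38 the counts of lower members were 15 in Mlp37347, 16 in Mlp124499 and 13 in both, of 35. These counts still include CRK31, which reached the minimum in 2 Mlp37347, 1 Mlp124499 and 4 Control libraries. Without Control, CRK31 would have fallen short of the 4 libraries that the filter asks for. With a mean of at least 10 counts required in every line, 13 of 31 members were lower in Mlp37347 (4.93% of all genes). In Mlp124499, 13 were lower as well (2.52%). CRK38 averaged 0.324 ± 0.178 CPM in Mlp37347, 0.221 ± 0.154 CPM in Mlp124499 and 2.22 ± 0.953 CPM in Control (SD, n = 4 each).

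CRK6 (AT4G23140) and CRK7 (AT4G23150), neighbours in the array that are known to protect against oxidative damage from extracellular reactive oxygen, fell in both lines. CRK6 had 6.47, 5.42, 8.94 and 2.04 CPM in Mlp37347, 7.17, 5.66, 9.76 and 6.81 CPM in Mlp124499, and 52.4, 29.7, 20.7 and 10.6 CPM in Control. CRK7 had 1.99, 1.55, 2.92 and 0.621 CPM in Mlp37347, 2.00, 1.72, 3.02 and 0.713 CPM in Mlp124499, and 16.5, 10.03, 15.1 and 1.67 CPM in Control. For CRK6 every effector library lay below Control, whereas for CRK7 library 4 of Control lay inside the range of both effector lines. CRK6 fell by 2.29 ± 0.48 on the log2 scale in Mlp37347 (edgeR adjusted p = 0.0123) and fell by 1.94 ± 0.47 in Mlp124499 (edgeR adjusted p = 0.0369). CRK7 fell by 2.58 ± 0.64 in Mlp37347 (edgeR adjusted p = 0.0276) and fell by 2.53 ± 0.65 in Mlp124499 (edgeR adjusted p = 0.0460), a call that 10 of the 12 fits without a library lost. 11.02% of the 100-base words in the exons of CRK6 also occur elsewhere in the genome, so some of its reads may align to several places.

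CRK8 (AT4G23160) had 0.677, 0.620, 0.752 and 0.710 CPM in Mlp37347, 1.27, 1.07, 1.63 and 1.62 CPM in Mlp124499, and 8.10, 4.30, 2.62 and 1.54 CPM in Control. It fell by 2.54 ± 0.46 on the log2 scale in Mlp37347 (edgeR adjusted p = 0.00644), while Mlp124499 overlapped library 4 of Control (log2 fold change -1.52 ± 0.44, edgeR adjusted p = 0.0727). EP1 (CRK9, AT4G23170), whose coding part is 798 bases long against 2010 in CRK10 (AT4G23180), averaged 12.5 ± 2.87 CPM in Mlp37347, 14.3 ± 7.00 CPM in Mlp124499 and 26.6 ± 6.06 CPM in Control (SD, n = 4 each). It passed in Mlp37347 (at -1.09 ± 0.30 on the log2 scale, edgeR adjusted p = 0.0416), and 9 of the 12 fits without a library lost that call. CRK8 and EP1 are 90.6% identical over 795 aligned bases, and 9.96% of the 100-base words of CRK8 occur elsewhere.

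CRK10 and CRK11 (AT4G23190), both known to be induced by pathogens, lie on opposite strands of the array and overlap by 32 bases in the TAIR10.1 annotation. Whether counting used strand is not given in the sources used here, so the assignment of reads from this overlap is uncertain. CRK11, with 6 motif matches in the window shown above, had 19.8, 17.9, 21.0 and 32.7 CPM in Mlp37347, 16.7, 18.7, 18.1 and 14.1 CPM in Mlp124499, and 41.9, 45.6, 55.3 and 31.3 CPM in Control. Library 4 of Mlp37347 reached into the Control range. The log2 fold change was -0.93 ± 0.22 in Mlp37347 (edgeR adjusted p = 0.0237) and -1.37 ± 0.23 in Mlp124499 (edgeR adjusted p = 0.00652).

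CRK10 had 69.5, 57.0, 75.1 and 59.4 CPM in Mlp37347, 48.3, 47.5, 54.1 and 32.8 CPM in Mlp124499, and 76.3, 87.0, 74.1 and 64.6 CPM in Control. Mlp124499 lay below both other lines, and Mlp37347 overlapped Control. The change was small, -0.72 ± 0.18 on the log2 scale in Mlp124499 (edgeR adjusted p = 0.0443), and was lost in 10 of the 12 fits without a library. In Mlp37347 it was -0.21 ± 0.18 (edgeR adjusted p = 0.513).

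CRK15 (AT4G23230) and CRK23 (AT4G23310) are further members of the array. CRK15 had 2.79, 2.63, 3.51 and 1.77 CPM in Mlp37347, 2.18, 2.87, 4.10 and 2.72 CPM in Mlp124499, and 10.9, 8.72, 9.26 and 4.39 CPM in Control. It fell by 1.62 ± 0.32 on the log2 scale in Mlp37347 (edgeR adjusted p = 0.00922) and fell by 1.47 ± 0.32 in Mlp124499 (edgeR adjusted p = 0.0221). CRK23 had 1.57, 2.22, 1.67 and 0.266 CPM in Mlp37347, 0.181, 0.820, 0.774 and 0.584 CPM in Mlp124499, and 14.1, 4.04, 4.56 and 1.001 CPM in Control. Its Control libraries differed 14.05-fold among themselves, the widest within-line spread of any Control member averaging at least 1 CPM, and it passed in Mlp124499 (log2 fold change -3.26 ± 0.78, edgeR adjusted p = 0.0340) and not in Mlp37347 (-1.98 ± 0.71, edgeR adjusted p = 0.104). The call in Mlp124499 was lost in 9 of the 12 fits without a library.

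**Figure D5:**
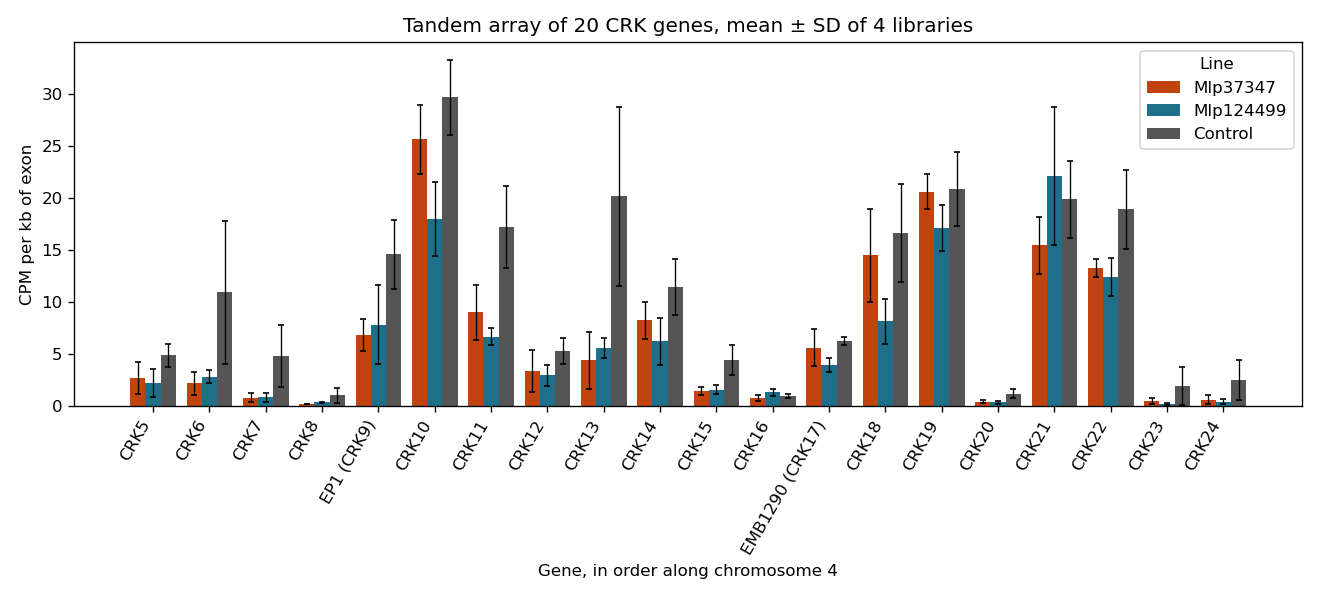
Level of the 20 CRK genes of the chromosome 4 tandem array in CPM per kb of exon (vertical axis), in their order along the chromosome; bars are means of 4 libraries and error bars their SD. Genes with high levels such as CRK10, CRK19 and CRK21 alternate with genes near 0 such as CRK8 and CRK20, and CRK6, CRK7, CRK11 and CRK13 have a Control bar well above both effector bars.

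Members that fell and members that did not were interleaved along the array. 8 of its 20 genes were lower in each effector line, with a median log2 fold change of -0.89 in Mlp37347 and -1.07 in Mlp124499. Over all tested genes, 5.42% were lower in Mlp37347 and 2.71% in Mlp124499. Of the 16 tested members outside the array, 8 were lower in Mlp37347 and 9 in Mlp124499, with medians of -0.97 and -1.04. These counts include CRK38, which entered the test through Control alone. CRK31 (AT4G11470) and CRK34 (AT4G11530), from a further group on chromosome 4, fell in both lines. CRK31 had 0.677, 0.517, 0.835 and 1.15 CPM in Mlp37347, 0.726, 0.410, 0.697 and 0.324 CPM in Mlp124499, and 1.99, 3.19, 4.30 and 2.75 CPM in Control. All effector libraries lay below all Control libraries, and CRK31 fell by 1.97 ± 0.37 on the log2 scale in Mlp37347 (edgeR adjusted p = 0.00731) and fell by 2.51 ± 0.39 in Mlp124499 (edgeR adjusted p = 0.00527). CRK31 passed the expression filter only with its Control libraries, where it was high. CRK34 had the smallest ratio of highest to lowest library in each effector line among members averaging at least 1 CPM there. It averaged 3.15 ± 0.162 CPM in Mlp37347, 3.43 ± 0.481 CPM in Mlp124499 and 6.74 ± 0.468 CPM in Control (SD, n = 4 each), with log2 changes of -1.09 ± 0.19 in Mlp37347 (edgeR adjusted p = 0.00494) and -0.97 ± 0.19 in Mlp124499 (edgeR adjusted p = 0.0129).

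CRK2 (AT1G70520) and CRK3 (AT1G70530), a pair on chromosome 1, had no call in either line. CRK2 is known to phosphorylate the NADPH oxidase RBOHD, and it had 62.8, 61.8, 68.9 and 32.3 CPM in Mlp37347, 27.5, 29.6, 44.1 and 21.7 CPM in Mlp124499, and 43.5, 43.0, 33.8 and 34.6 CPM in Control. Libraries 1 to 3 of Mlp37347 stood above all Control libraries, and library 4 stood below them. Its log2 fold change was 0.54 ± 0.26 in Mlp37347 (edgeR adjusted p = 0.206), and without library 4 of Mlp37347 it was 0.78 ± 0.21 (edgeR adjusted p = 0.0221). CRK3 averaged 40.8 ± 8.63 CPM in Mlp37347, 39.96 ± 12.4 CPM in Mlp124499 and 40.2 ± 2.54 CPM in Control (SD, n = 4 each), with 95% intervals of the log2 fold change of -0.48 to 0.52 and -0.51 to 0.49.

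CRK30 (AT4G11460) had the widest spread between libraries within each effector line among members averaging at least 1 CPM there, 55.0-fold in Mlp37347 and 14.8-fold in Mlp124499. Its levels were 8.93, 9.76, 7.02 and 0.177 CPM in Mlp37347, 0.907, 0.820, 0.465 and 6.87 CPM in Mlp124499, and 2.26, 4.10, 2.62 and 2.44 CPM in Control. Library 4 of each effector line lay on the other side of Control from libraries 1 to 3 of that line. With all libraries CRK30 passed in neither line (log2 fold change 1.19 ± 0.87 and -0.31 ± 0.89, edgeR adjusted p = 0.428 and 0.932). Without both effector libraries numbered 4 it was higher in Mlp37347 than in Control (1.62 ± 0.26, edgeR adjusted p = 0.000955).

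Set directly against each other, the 2 effector lines gave no call for any CRK gene by edgeR's quasi-likelihood test. 0 members were higher in Mlp37347 than in Mlp124499 (1.10% of all tested genes) and 0 lower (1.59%), while at an unadjusted p under 0.05 there were 3 higher and 4 lower. DESeq2 called 1 higher, CRK2 (3.60% of all genes it tested), and 0 lower (3.72%). Limma voom with sample weights called 14 of 36 higher (27.3% of all genes) and 2 lower (5149 of the 19090 genes tested). Without both effector libraries numbered 4, edgeR called 9 of 36 higher in Mlp37347 (13.0% of all genes) and 0 lower (12.9%), the 9 being CRK2, CRK5, CRK12 (AT4G23200), EMB1290 (CRK17, AT4G23250), CRK18 (AT4G23260), CRK29, CRK30, CRK40 and CRK42 (AT5G40380). Without library 4 of Mlp37347 it called 3 higher, CRK2, EMB1290 and CRK18 (7.26% of all genes), and without library 4 of Mlp124499 it called 1 higher, CRK29 (2.11%). EMB1290 overlaps CRK16 on the same strand, so reads in the stretch that they share cannot be told apart. Libraries of the 2 lines did not overlap for 1 member that was higher in Mlp37347, CRK10 (5.32% of all tested genes), and for 2 that were lower, CRK8 and CRK21 (5.58%). A missed threshold does not show that the lines are alike: the 95% interval of the log2 difference of CRK39 ran from -2.07 to 0.14, and that of CRK2 from 0.32 to 1.44.

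Of the 17 members with no call against Control in either line, 10 had a log2 fold change below 0 in both. CRK24 (AT4G23320) missed the threshold in both lines, at -1.97 ± 0.68 on the log2 scale in Mlp37347 (edgeR adjusted p = 0.0934) and -2.49 ± 0.71 in Mlp124499 (edgeR adjusted p = 0.0716). CRK22 (AT4G23300) did so with smaller log2 fold changes of -0.51 ± 0.18 in Mlp37347 (edgeR adjusted p = 0.0929) and -0.60 ± 0.18 in Mlp124499 (edgeR adjusted p = 0.0783). 11.9% of the 100-base words of CRK22 and 10.7% of those of CRK13 occur elsewhere, and the 2 genes are each other's closest relatives at 80.3% identity. The 4 members that were not tested were all near 0: CRK33 (AT4G11490) had no count in any library, CRK32 (AT4G11480) had 15, 6 and 14 counts summed over the 4 libraries of Mlp37347, Mlp124499 and Control, CRK25 (AT4G05200) had 20, 8 and 15, and CRK26 (AT4G38830) had 17, 11 and 30. Of the 36 tested, CRK27 (AT4G21230) reached the filter minimum in 5 of the 12 libraries.

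Genes outside the 40 were read from 4 lists chosen with earlier results of these data known. Of 14 WRKY and salicylic acid regulators, all tested, 10 were lower in Mlp37347 (5.42% of all tested genes were) and 10 in Mlp124499 (2.71%). None was higher in either line by edgeR (3.19% and 1.56% of all tested genes). These shares also stand beside the lists below. At an unadjusted p under 0.05, 1 was higher in Mlp37347 and 0 in Mlp124499, and DESeq2 called 0 higher in each. WRKY18, WRKY60, NPR1 and PR1 had no call in either line. The log2 fold change of PR1 was -0.49 ± 0.72 in Mlp37347 (edgeR adjusted p = 0.718) and -1.44 ± 0.74 in Mlp124499 (edgeR adjusted p = 0.38). PBS3, an enzyme of salicylic acid synthesis, had 2.92, 2.74, 3.09 and 3.02 CPM in Mlp37347, 3.08, 2.46, 5.96 and 7.39 CPM in Mlp124499, and 27.9, 28.6, 63.4 and 18.1 CPM in Control. Its log2 fold change was -3.55 ± 0.43 in Mlp37347 (edgeR adjusted p = 0.00112) and -2.86 ± 0.41 in Mlp124499 (edgeR adjusted p = 0.00434). WRKY70, which acts downstream of salicylic acid, fell by 2.37 ± 0.34 on the log2 scale in Mlp37347 (edgeR adjusted p = 0.00186) and fell by 1.53 ± 0.33 in Mlp124499 (edgeR adjusted p = 0.0217). EDS1, a lipase-like protein needed for signalling by many intracellular immune receptors, fell by 1.51 ± 0.22 in Mlp37347 (edgeR adjusted p = 0.00195) and fell by 1.14 ± 0.22 in Mlp124499 (edgeR adjusted p = 0.0113).

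The list's summed level was 315 to 328 CPM in Mlp37347, 262 to 365 CPM in Mlp124499 and 497 to 1117 CPM in Control, with the lowest Control value in library 4, the library that was also lowest of Control for 25 of the 36 tested CRK genes. Senescence markers, another list, summed to 61.4 to 234 CPM in Mlp37347, 95.3 to 179 CPM in Mlp124499 and 175 to 302 CPM in Control, with 1 of 4 tested markers called lower in each effector line, NYE1 in Mlp37347 and SAG13 in Mlp124499. SAG12, the defining marker of late senescence, was at 0 in 3 Mlp37347, 3 Mlp124499 and 2 Control libraries and reached at most 3.21 CPM. The part of either list in the CRK result was not tested.

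The remaining lists hold other genes around CRK signalling. Of 8 receptor complex and oxidative burst genes, none was called in Mlp37347 (at an unadjusted p under 0.05, 1 higher and 2 lower; DESeq2 called 1 higher and 2 lower) and 1 was lower in Mlp124499. That gene, SOBIR1, a co-receptor kinase for receptor-like proteins, had 72.6, 67.3, 77.2 and 99.2 CPM in Mlp37347, 47.1, 46.2, 53.7 and 42.2 CPM in Mlp124499, and 150, 133, 129 and 80.3 CPM in Control (log2 fold change in Mlp124499 -1.38 ± 0.21, edgeR adjusted p = 0.00527). RBOHD, the main oxidase of the immune oxidative burst, had 39.9, 42.8, 44.5 and 19.2 CPM in Mlp37347, 29.4, 27.3, 27.4 and 91.8 CPM in Mlp124499, and 82.3, 97.0, 87.5 and 89.4 CPM in Control. Library 4 of Mlp124499 was at the Control level, and the gene passed in neither line (edgeR adjusted p = 0.0602 and 0.195).

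Among the 7 tested of 8 PDLP genes, which encode plasmodesmal proteins with DUF26 domains and no kinase, edgeR called 0 in either line, with 1 higher in Mlp37347 and 1 lower in Mlp124499 at an unadjusted p under 0.05 and 0 called by DESeq2. Of 5 further CRK-related loci 3 were tested. AT4G00960 averaged 0.744 ± 0.2997 CPM in Mlp37347, 1.09 ± 0.745 CPM in Mlp124499 and 2.71 ± 0.938 CPM in Control (SD, n = 4 each) and fell in Mlp37347 (at -1.82 ± 0.48 on the log2 scale, edgeR adjusted p = 0.0333). AT1G70740 averaged 14.9 ± 2.04 CPM in Mlp37347, 9.08 ± 1.01 CPM in Mlp124499 and 14.3 ± 1.62 CPM in Control and fell in Mlp124499 (log2 fold change -0.65 ± 0.17, edgeR adjusted p = 0.0466). In the direct comparison AT1G70740 was higher in Mlp37347 than in Mlp124499 (log2 difference 0.72 ± 0.17, edgeR adjusted p = 0.0403), as were BAK1 of the receptor list (0.70 ± 0.17, edgeR adjusted p = 0.0476) and WRKY18 of the regulator list (2.32 ± 0.52, edgeR adjusted p = 0.0353). WRKY18 had 69.99, 56.2, 71.5 and 10.7 CPM in Mlp37347, 6.26, 7.05, 9.14 and 19.3 CPM in Mlp124499, and 26.5, 23.6, 26.5 and 13.6 CPM in Control, so that library 4 of each effector line lay apart from the other 3.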

How the data were processed

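RNA-seq was done on 12 libraries, 4 for each of the Mlp37347, Mlp124499 and Control lines. Per the labels, stranded mRNA libraries from 100 ng of RNA were sequenced as paired ends. Per the submitters' processing notes, Trimmomatic removed low-quality ends, TopHat 2.0.14 placed the pairs on TAIR10 and R 3.2.5 assigned them to transcripts by union-mode counting, per the series' design text. Whether counting used strand, and how reads aligned to several places were handled, is not given in the sources used here. The authors deposited whole-number counts per locus, which were used as they stand, and a table of read totals and mate inner distances.

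Genes were kept by edgeR's filterByExpr (10 counts at the median library size, or 0.713 CPM, in at least 4 libraries), which left 19090 genes, and scaled by TMM. One edgeR 4.0.16 quasi-likelihood fit with a mean per line gave all 3 comparisons (9 residual degrees of freedom), with Benjamini-Hochberg adjustment over all tested genes, and was checked on simulated counts. SE is the absolute log2 fold change over the square root of F. CPM uses the TMM-scaled library totals, and CPM per kb divides by the union of exons in RefSeq's annotation of TAIR10.1, which matched 99.1% of identifiers. Alternatives were other scalings, filters and thresholds, DESeq2 1.42.0, limma 3.58.1 voom with sample weights, and fits without libraries. Named genes were, for each effector line, up to 10 called members with the largest change and a mean of at least 1 CPM, the 5 with the highest Control CPM per kb, and members called between effector lines, of which there were none. In the lists they were up to 3 genes by smallest p. Members described beyond this rule (CRK2, CRK3, CRK5, CRK11, CRK22, CRK24, CRK28, CRK29, CRK30, CRK34, CRK38, EP1, RBOHD, PR1 and WRKY18 among them) were chosen after their values were seen. The members and lists were chosen with earlier results of these data known.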

Additional observations from a re-analysis of the deposited data

Results flagged for a closer look

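Among 108 sets of 4 libraries (36 tested members in 3 lines), 5 held a library far from the other 3 by Dixon's 95% criterion, which chance alone meets in about 1 of 20 sets. All 5 involved a library numbered 4. In library 4 of Mlp124499, CRK39 stood at 2.85 CPM against 0.820 to 1.16 CPM in the other 3, CRK30 at 6.87 CPM against 0.465 to 0.907 CPM, and CRK21 at 76.2 CPM against 43.5 to 46.5 CPM. In library 4 of Mlp37347, CRK21 stood at 27.1 CPM against 39.1 to 40.4 CPM. In library 4 of Control, CRK14 stood at 14.8 CPM against 25.1 to 25.5 CPM.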

How the results depend on the processing

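No fold change of a called and named member changed sign under any alternative (450 of 570 values kept their call and 120 lost it). The main counts of lower members were 16 in Mlp37347 and 17 in Mlp124499 against Control, with CRK38 among both. Each percentage below is the share of all genes tested in the same fit with the same call. With limma voom and sample weights the counts were 25 (29.5%) and 32 (20.1%), with 2 higher in Mlp37347 (27.6%), and 14 higher (27.3%) and 2 lower (5149 of 19090 genes) between the effector lines. DESeq2 called 1 higher between the effector lines (3.60%). At an adjusted p of 0.01 there were 9 lower in Mlp37347 (1.69%) and 5 in Mlp124499 (0.817%). Without both effector libraries numbered 4, Mlp124499 had 27 lower (10.5%), Mlp37347 had 2 higher (16.5%), and 9 were higher in Mlp37347 than in Mlp124499 (13.0%). Without all 3 libraries numbered 4, an alternative chosen after seeing the data, Mlp124499 had 29 lower (10.7%), Mlp37347 had 2 higher (17.4%), and between the effector lines 9 were higher (13.7%) and 1 lower (13.6%). Without Control libraries 1 and 4, also chosen after seeing the data, Mlp124499 had 9 lower (1.40%). Leaving out 1 library at a time gave 10 to 18 lower in Mlp37347, 3 to 21 lower in Mlp124499, 0 to 1 higher in Mlp37347, and 0 to 3 higher between the effector lines. A fit with the replicate number as a block gave 12 lower in Mlp37347 (2.96%) and 8 in Mlp124499 (1.18%). The deviations of same-numbered libraries correlated between -0.428 and 0.125, which gave no sign of pairing by number in the same direction. The lowest value, -0.428, was between library 4 of Mlp37347 and library 4 of Mlp124499, which deviated in opposite directions. The cause of that was not tested. A batch that acts differently in each line would not show as a positive correlation. Total-count scaling moved the median log2 fold change of all genes by -0.20 in Mlp37347 against Control and by -0.14 between the effector lines. The cause of these shifts was not tested. Among tested members CRK27, CRK38 and CRK20 had the fewest counts over all libraries, 138, 168 and 254.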
